A study of Mus musculus with 7 samples.

Results

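Cytosolic heat shock chaperones were examined in islets, the endocrine part of the pancreas where β-cells secrete insulin, taken from male mice of the second generation (F2). The group holds 10 genes of the 21899 listed: Hspa1a, Hspa1b, Hspa8, Hsph1, Hsp90aa1, Hsp90ab1, Dnajb1, Dnaja1, Hspb1 and Bag3. They were chosen by name as heat shock genes, with the ratio of their levels between the same libraries already known, so that ratio is given as a description and without a test. The founder dams, wild-type C57BL/6J mice, were injected in late pregnancy with dihydrotestosterone dissolved in benzyl benzoate and corn oil (androgen exposure, AE) or with benzyl benzoate and corn oil alone (control). Their F1 sons were mated with wild-type females from outside the lineage, and islets of the F2 sons were isolated with collagenase and picked by hand. Mice had chow unless the study said otherwise, and no other diet is named for the islets sequenced. For the islets sequenced, the sources used here do not give the age of the F2 males, any time in culture, or whether a library holds 1 animal or several. The labels give 3 samples of the group control and 4 of the group hyperandrogenism, called control-F2 and AE-F2 here. One library of each group was analysed here, control-F2 replicate 1 and AE-F2 replicate 4, and the other 5 were not analysed here. With 1 library per group, no difference below has a replicate check, and each compares these libraries and not the conditions.

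Heat shock chaperones bind unfolded or partly folded proteins and help them to fold, to reach their partners or to be degraded. HSP70 proteins open and close on their clients by hydrolysing ATP, J-domain (HSP40) proteins bring clients and start the hydrolysis, and HSP110 and BAG proteins help ADP to leave. HSP90 takes over late-folding clients such as kinases and steroid receptors, and small heat shock proteins hold unfolded proteins without using ATP. Heat shock factor 1 (HSF1) binds heat shock elements, repeats of GAA in alternating orientation, and switches on the inducible members within minutes of stress. In islets, β-cells fold large amounts of proinsulin, which is done in the endoplasmic reticulum by a separate set of chaperones.

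The promoters of the members are shown first, because several members are known for their induction through heat shock elements. RefSeq promoters (GRCm38.p6, 250 bases before the start site searched) were matched by symbol for 7 of the 10 members, and Hspa8, Hsp90aa1 and Hsp90ab1 had no entry. A pair of adjoining units, GAANNTTC or TTCNNGAA (each reads the same on both strands), lay in the searched bases of 5 of the 7 genes, against 14.5% of 27025 genes. The 3-unit forms GAANNTTCNNGAA and TTCNNGAANNTTC, which contain the 2-unit forms, were found in 0 of the 7 and in 0.514% of all genes. A gene was counted if the bases before any of its listed starts held a match. Hspa1a and Hspa1b are near-identical copies, so the 7 promoters are not independent of each other. A match is a run of letters and was not tested as a binding site. The windows below are written 5′ to 3′ on the strand of the gene, with the 2-unit match in capitals.
Hspa1a, chr17:34972241-34972320, minus strand: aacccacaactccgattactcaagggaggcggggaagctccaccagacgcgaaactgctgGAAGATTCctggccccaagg
Hspa1b, chr17:34959323-34959402, minus strand: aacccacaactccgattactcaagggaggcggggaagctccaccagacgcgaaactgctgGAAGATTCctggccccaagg
Hsph1, chr5:149636350-149636429, minus strand: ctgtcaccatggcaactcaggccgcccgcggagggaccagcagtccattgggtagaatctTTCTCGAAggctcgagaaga
Hspb1, chr5:135887762-135887841, plus strand: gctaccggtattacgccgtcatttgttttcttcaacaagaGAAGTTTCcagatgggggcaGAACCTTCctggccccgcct
Dnaja1, chr4:40722284-40722363, plus strand: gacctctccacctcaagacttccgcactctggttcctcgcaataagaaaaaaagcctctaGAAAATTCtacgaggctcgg

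The Hspa1a and Hspa1b windows are the same letter for letter, and the match began 104 bases before the start of each gene. Over the whole 250 bases the pair differed at 3 positions. The Hsph1 match began 54 bases before 1 of its 2 listed starts, and the bases searched for the other start held a match too. The Dnaja1 match began 124 bases before the first of its listed starts, and its other listed starts had none. The Hspb1 matches began 117 and 97 bases before the start of that gene. The Dnaja1 window and part of the Hsph1 window lie inside the GENCODE M21 spans of these genes, so their place before the start depends on the start used. Dnajb1 and Bag3 had no 2-unit match in the bases searched.

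Library depth was 16285888 counts for control-F2 and 21278513 for AE-F2, and 15527 and 16137 genes had a value above 0. Values are estimated counts, which were divided by library totals adjusted with TMM, which brings the bulk of genes to the same level, and are given as CPM. Log2 ratios have AE-F2 on top and control-F2 below, so that a negative value is a lower level in AE-F2. Beside each ratio stands a 95% Clopper-Pearson interval, taken on the part of the gene's counts that came from AE-F2. It covers counting error only and leaves out the spread between animals, and it takes reads as independent molecules, which PCR copies are not. Across the 13627 genes compared, which averaged 10 counts or more over both libraries, the median log2 ratio was 0.00. The tissue label held, with 10 of 10 β-cell markers detected, and Ins1 and Ins2 took 17.7% of counts in control-F2 and 17.5% in AE-F2.

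All 10 members passed the minimum count, and all 10 had a log2 ratio below 0 in AE-F2. Of the 13627 genes compared, 6858 were below 0 and 6769 above. Of the members, 3 were at least 2-fold lower (Dnajb1, Hspa1a and Hspa1b), where 0.66% of all genes compared were, and 0 were at least 2-fold higher, where 3.16% of all genes were. The counting interval lay below equality for 9 members, against 13.7% of all genes, and above it for 0, against 13.2%. Because well-measured genes have narrow intervals, a closer background for the 8 members other than Hspb1 and Bag3 is the 3471 genes that averaged 1000 counts or more, of which 25.5% had an interval below equality and 0.317% (11 genes) were at least 2-fold lower. Of those 8 members 7 had an interval below equality, and Dnajb1, Hspa1a and Hspa1b are 3 of the 11 genes. Among the 3471 genes, 1974 had a log2 ratio below 0. The median log2 ratio of the members was -0.41, with a range from -1.82 to -0.02.

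**Figure D1:**
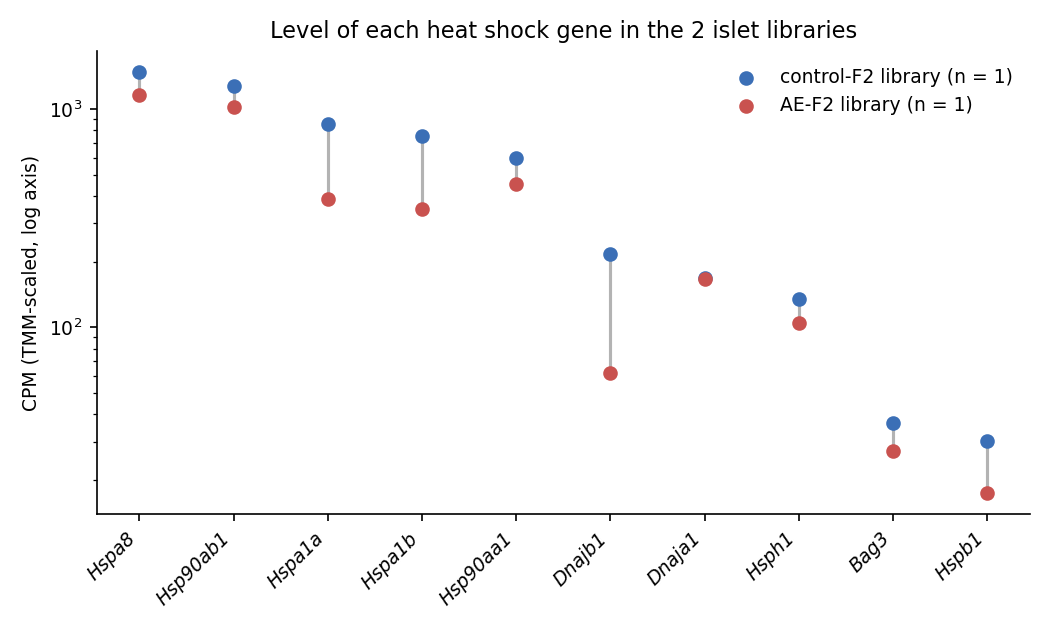
Level of each of the 10 members in CPM (log axis) in the control-F2 library (blue) and the AE-F2 library (red), 1 library each, with a grey line joining the values of a gene. The red point is the lower for all 10 genes. As a fold, the gap is largest for Dnajb1 (217 against 61.6 CPM) and smallest for Dnaja1 (169 against 166 CPM).

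Among the HSP70 genes, the inducible pair was lower in AE-F2 by more than 2-fold while the constitutive gene was 1.28-fold lower. Hspa1a (ENSMUSG00000091971), which encodes stress-inducible HSP70, had 14003 counts in control-F2 and 8282 in AE-F2, or 859 and 389.5 CPM. Its log2 ratio was -1.14 (interval -1.18 to -1.10), a level 2.21-fold lower. Hspa1b (ENSMUSG00000090877), the neighbouring copy with nearly the same protein, had 12289 and 7399 counts, or 754 and 348 CPM. The log2 ratio of Hspa1b was -1.12 (-1.16 to -1.07). The copies are hard to tell apart in short reads: of the 50-base stretches of the Hspa1a transcript, 58.8% also occur in Hspa1b, and both genes had fractional counts. Their sum does not depend on how reads were divided between the pair, and it was 1613 CPM in control-F2 and 738 in AE-F2, 2.19-fold lower (2.14 to 2.23). Hspa8 (ENSMUSG00000015656), the HSC70 that most cells make without stress, was the most abundant member in CPM, with 24148 and 24696 counts. After scaling these were 1482 and 1162 CPM, a log2 ratio of -0.35 (-0.38 to -0.33). Of its 50-base stretches, 52.7% occur in other annotated genes, mostly a pseudogene that the files do not list.

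The J-domain members stood at opposite ends of the range. Dnajb1 (ENSMUSG00000005483), the inducible HSP40 that works with HSP70 on aggregated proteins, had 3541 counts in control-F2 and 1310 in AE-F2. These were 217 and 61.6 CPM, 3.53-fold lower (3.31 to 3.76), with a log2 ratio of -1.82. No gene that averaged 1000 counts or more had a lower ratio, and 13 of the 13627 genes compared did. Dnaja1 (ENSMUSG00000028410), a farnesylated HSP40 that is made without stress, had 2753 and 3537 counts, or 169 and 166 CPM. Its log2 ratio of -0.02 had an interval that included equality (-0.09 to 0.05), so a difference of Dnaja1 was not detectable at this depth. Dnajb1 shares 0.4% of its 50-base stretches with other genes, against 28.8% for Dnaja1.

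The HSP90 genes, the stress-inducible α form and the constitutive β form, were both lower in AE-F2 by similar steps. Hsp90aa1 (ENSMUSG00000021270) had 9748 counts in control-F2 and 9685 in AE-F2, or 598 and 456 CPM. The log2 ratio of Hsp90aa1 was -0.39 (-0.43 to -0.35), a level 1.31-fold lower. Hsp90ab1 (ENSMUSG00000023944) had 20757 and 21706 counts, or 1274 and 1021 CPM, and a log2 ratio of -0.32 (-0.35 to -0.29). The counting intervals of the HSP90 genes met at -0.35. Of the 50-base stretches of the Hsp90aa1 transcript, 58.5% occur in other annotated transcripts, mostly a pseudogene that the files do not list, against 4.5% for Hsp90ab1.

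Both nucleotide exchange factors of HSP70 were lower in AE-F2, Hsph1 by 1.29-fold and Bag3 by 1.35-fold. Hsph1 (ENSMUSG00000029657), an HSP110, had 2204 and 2229 counts, which were 135 CPM in control-F2 and 105 in AE-F2. Its log2 ratio was -0.37 (-0.45 to -0.28). Bag3 (ENSMUSG00000030847), which links HSP70 to small heat shock proteins and to autophagy, had 595 and 577 counts, or 36.5 and 27.1 CPM. The log2 ratio of Bag3 was -0.43 (-0.60 to -0.26). Neither gene shared a 50-base stretch with another annotated gene.

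Hspb1 (ENSMUSG00000004951), which encodes the small heat shock protein HSP25, had the lowest level of the members in CPM and the widest interval. It had 490 counts in control-F2 and 371 in AE-F2, or 30.1 and 17.4 CPM. The level was 1.72-fold lower (1.5 to 1.98) and the log2 ratio was -0.78 (-0.98 to -0.59), the fourth lowest of the members after Dnajb1, Hspa1a and Hspa1b. Of its 50-base stretches, 51.6% occur in an annotated pseudogene that the files do not list.

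**Figure D2:**
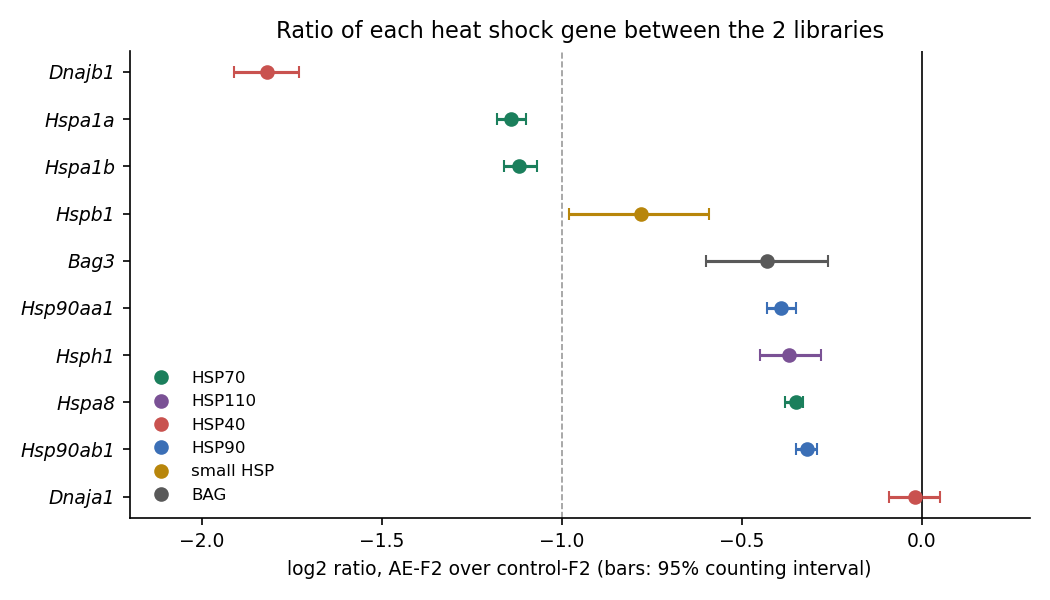
Log2 ratio (AE-F2 to control-F2) of each member, ordered from lowest to highest and coloured by chaperone family, with the 95% counting interval as a bar. The solid line marks equality and the dashed line a 2-fold lower level; Dnajb1, Hspa1a and Hspa1b lie left of the dashed line, and the bar of Dnaja1 crosses equality.

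The members together had 90528 counts in control-F2 (0.556% of the library) and 79792 in AE-F2 (0.375%). Scaled, the sum was 5554 CPM and 3753 CPM, a ratio of 0.676 (0.669 to 0.682). Hspa1a and Hspa1b carried 48.6% of the difference of 1801 CPM, Hspa8 17.8%, Hsp90ab1 14% and Dnajb1 8.64%. Dnajb1 had the lowest ratio but a middling level, and so it carried less of the difference than the abundant constitutive genes. Without Hspa1a, Hspa1b and Dnajb1, the 7 remaining members had a median log2 ratio of -0.37 and a summed ratio of 0.793 (0.784 to 0.802).

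Levels of different genes were compared per length, as CPM per kilobase of the longest GENCODE M21 transcript. In control-F2, Hsp90ab1 (505 CPM per kb) and Hspa8 (469) were highest, followed by Hspa1a (289.6), Hspa1b (269), Hsp90aa1 (182) and Dnajb1 (72.5). Hspb1 (32.3), Dnaja1 (30.0), Hsph1 (28.4) and Bag3 (14.2) came after them. The counting intervals of Hspb1 and Dnaja1 overlapped, as did those of Dnaja1 and Hsph1. In AE-F2 the first places were the same, with Hsp90ab1 at 405 CPM per kb and Hspa8 at 368, but Hsp90aa1 (139) stood above Hspa1a (131) and Hspa1b (124). Dnajb1, at 20.6 CPM per kb, came in AE-F2 after Dnaja1 (29.6) and Hsph1 (22.0), and its interval overlapped those of Hsph1 and Hspb1 (18.8). The longest transcript may not be the one islets use, which shifts a gene by the same factor in both libraries.

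Ratios of counts within a library need no scaling between libraries. Hspa1a and Hspa1b together had 1.09 counts for each count of Hspa8 in control-F2 (interval 1.07 to 1.11) and 0.635 in AE-F2 (0.622 to 0.648). Dnajb1 had 1.29 counts for each count of Dnaja1 in control-F2 (1.22 to 1.35) and 0.370 in AE-F2 (0.347 to 0.395). In both of these ratios the gene below is one of the same family that is also made without stress. Induction by stress was not measured for any of these genes. The libraries lay far outside each other's interval in both ratios. Hsp90aa1 over Hsp90ab1 was 0.470 (0.458 to 0.481) and 0.446 (0.436 to 0.457), so its intervals were apart by little. Hspa1a over Hspa1b was 1.14 (1.11 to 1.17) and 1.12 (1.08 to 1.16), which overlapped.

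**Figure D3:**
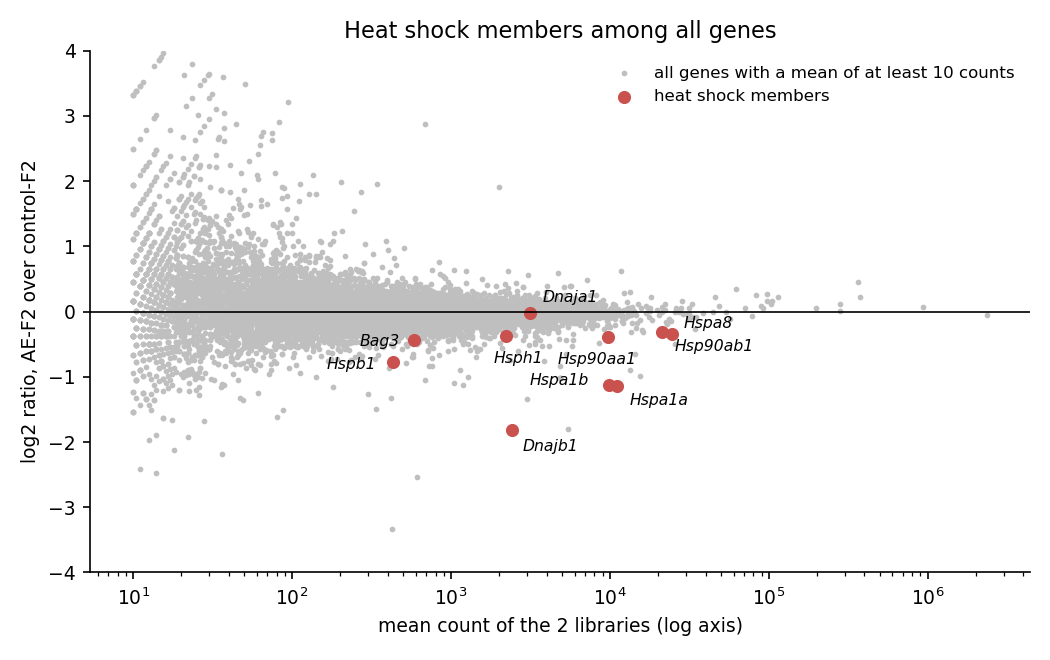
Log2 ratio (AE-F2 to control-F2) against the mean count of both libraries (log axis) for the 13627 genes compared (grey) and the 10 members (red); 66 genes with a log2 ratio beyond 4 in either direction lie outside the axis. Of the genes averaging 1000 counts or more, Dnajb1 has the lowest ratio (-1.82), and Hspa1a (-1.14) and Hspa1b (-1.12) lie below the mass of genes.

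The other cytosolic relatives of the members had a median near equality and a summed ratio below it. Of 18 further HSP70, HSP110 and HSP40 genes, all compared, the median log2 ratio was 0.01, with 4 intervals below equality, 1 above and 0 past 2-fold, and the summed ratio was 0.936 (0.918 to 0.954). The most abundant were Dnaja4 (-0.39, interval -0.46 to -0.32), Hspa4 (-0.02), Dnajc5 (-0.05) and Dnajb6 (0.00). Dnajb4, named here after its value was seen, had the lowest ratio of the list at -0.56 (-0.71 to -0.42). Dnaja4 and Dnajb4 are J-domain proteins of the same classes as Dnaja1 and Dnajb1. Of 7 further small heat shock proteins 4 had enough counts, with a median of 0.17 that was -0.12 when a mean of 50 counts was required, and for all 4 the interval included equality. The most abundant of them, Hspb6, had 435 and 527 counts.

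Co-chaperones of HSP70 and HSP90 and the BAG proteins (19 of 19 compared) had a median log2 ratio of -0.08, with 7 intervals below equality and 1 above, and a summed ratio of 0.943 (0.928 to 0.958). Fkbp4 (-0.15), Bag6 (-0.18) and St13 (-0.17) were the most abundant with an interval below equality, and Fkbp5, a glucocorticoid-induced partner of HSP90, was higher at 0.16 (0.08 to 0.23). The cytosolic chaperonin TRiC, the ring that folds actin and tubulin, and its partner prefoldin (14 of 14 compared) had a median of 0.10, with 13 genes above 0, 0 intervals below equality and 5 above, and a summed ratio of 1.05 (1.03 to 1.07). Cct5, Cct8, Cct6a and Cct7, the most abundant of these, ranged from -0.03 to 0.12.

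Chaperones of other compartments had medians within 0.06 of equality on the log2 scale. In the endoplasmic reticulum, where insulin folds, 18 of 18 genes were compared, with a median of 0.06, 2 intervals below equality and 11 above, and a summed ratio of 1.02 (1.02 to 1.03). Hspa5 (BiP), the HSP70 of that compartment, had a log2 ratio of -0.10 (-0.12 to -0.07), and Hsp90b1 (GRP94), its HSP90, one of 0.05 (0.03 to 0.08). P4hb (-0.01) and Pdia3 (0.07), both disulfide isomerases, were the next most abundant. In mitochondria, 11 of 11 chaperones and proteases were compared, with a median of -0.01 and 2 intervals on each side of equality, and a summed ratio of 0.985 (0.962 to 1.01). Hspa9, the mitochondrial HSP70, stood at -0.02 and Hspd1, the mitochondrial chaperonin, at -0.03.

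**Figure D4:**
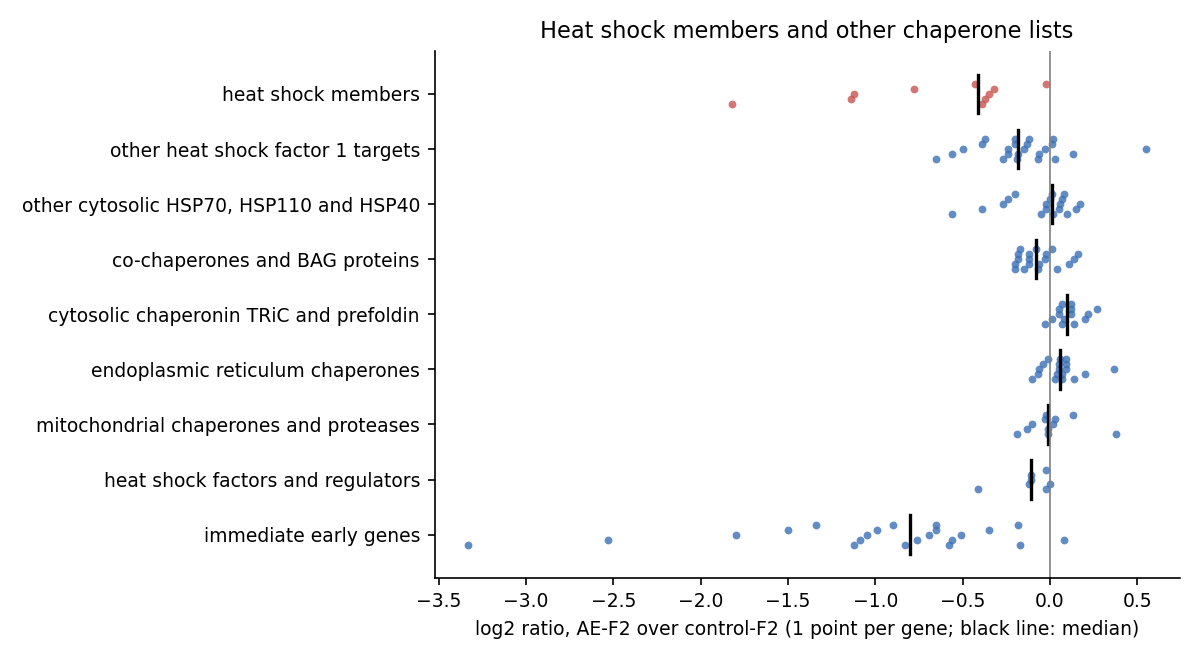
Log2 ratio (AE-F2 to control-F2) for each compared gene of 9 lists (1 point per gene, black line at the median, vertical spread within a row only for visibility). The members (median -0.41) and the immediate early genes (-0.80) lie mostly left of equality, the mitochondrial chaperones (-0.01) lie around it, and most chaperones of the endoplasmic reticulum (0.06) and most TRiC and prefoldin genes (0.10) lie slightly right of it.

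HSF1 itself, the factor that drives the inducible members, had 600 counts in control-F2 and 774 in AE-F2 as mRNA, a log2 ratio of -0.02 (-0.17 to 0.14). Hsf2, the related factor, had a log2 ratio of -0.12 (-0.30 to 0.07), Hsbp1, which encodes a protein that binds HSF1, had one of 0.00, and Hsf4 had 50 and 49 counts. HSF1 is regulated mainly on the protein, and its activity was not measured. Of 9 genes in the list of heat shock factors and regulators 7 were compared, with 1 interval below equality, that of Ep300 (-0.11).

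A list of 23 other genes described as HSF1 targets, all compared, had a median log2 ratio of -0.18, with 18 below 0, 13 intervals below equality, 0 above and 0 past 2-fold. Some of these genes are also in the lists above. Among the most abundant were the polyubiquitin gene Ubb (-0.27, interval -0.30 to -0.25), the early response gene Jun (-0.65, -0.69 to -0.62) and the autophagy receptor Sqstm1 (-0.06, -0.10 to -0.02). For the 10 remaining targets the interval included equality. The median of this list lay between that of the members and equality. Its summed ratio was 0.795 (0.788 to 0.802), beside 0.676 for all members and 0.793 for the 7 without Hspa1a, Hspa1b and Dnajb1.

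Other gene groups also differed between these libraries, and their part in the heat shock values was not tested. Immediate early genes, which cells switch on within minutes of a stimulus, had a median log2 ratio of -0.80 over 22 of 23 genes compared, with 18 intervals below equality and 8 genes at least 2-fold lower. Their summed level was 5416 CPM in control-F2 and 2842 CPM in AE-F2, a ratio of 0.525 (0.519 to 0.530). Fos, Jun, Egr1 and Fosb, the most abundant, had log2 ratios of -0.99, -0.65, -0.90 and -1.80. Atf3 (-3.33), Npas4 (-2.53), Arc (-1.50), Dusp1 (-1.34), Nr4a1 (-1.12), Klf6 (-1.09) and Klf4 (-1.05) were the others past 2-fold. Jun is in this list and among the HSF1 targets.

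Cell type marker lists had the following values beside the members, and their part in the members' values was not tested either. The 10 β-cell markers had a median log2 ratio of -0.10, with 8 intervals below equality and 2 above, and a summed ratio of 1.00 that Ins2 (-0.05), Ins1 (0.07) and Iapp (0.23) dominate. The 11 acinar markers compared, of 12, had a median of -0.41, the same as that of the members, with 10 intervals below equality. Their summed ratio of 0.887 (2692 and 2388 CPM) includes Amy2a5, whose reads can be shared with near-identical amylase copies and which was higher at 0.62. Acinar cells are the enzyme-secreting cells around the islets.

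Immune and mesenchymal markers were mostly higher in AE-F2. The 11 immune markers compared, of 12, had a median log2 ratio of 0.64, with 8 intervals above equality and 1 below, and a summed ratio of 1.53 (281 and 429 CPM). The 9 mesenchymal markers had a median of 0.98, with 7 intervals above equality and 1 below, and a summed ratio of 1.22 (252 and 309 CPM) that the pericyte gene Rgs5 (0.08) dominates. The markers past 2-fold higher that averaged 100 counts or more were the immune genes Ptprc (66 and 343 counts) and Lyz2 (112 and 571 counts), and the mesenchymal genes Col1a1 (102 and 313 counts) and Dcn (95 and 254 counts). The T-cell gene Cd3e, too low to be compared, had 0 and 10 counts, and the B-cell gene Ms4a1 had 3 and 150; both were named after their values were seen.

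For the other marker lists the medians were 0.12 (8 α-cell markers, summed ratio 1.34, mostly glucagon, Gcg, at 0.46), 0.03 (6 δ- and PP-cell markers, 1.01), -0.07 (7 endothelial markers of 8, 0.968), 0.12 (6 duct markers of 7, 1.15) and 0.34 (5 Schwann cell markers of 7, 1.17). In bulk RNA, fewer cells of a type and less RNA per cell cannot be told apart, and this holds for the members too.

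Likeness to the members was measured as the absolute difference of the log2 ratio, which with 2 libraries is a single value, over the genes averaging 1000 counts or more that are not members. The genes nearest to Dnajb1 (-1.82) were Fosb (-1.80), Dusp1 (-1.34), Nr4a1 (-1.12), Klf6 (-1.09) and the amylase gene Amy2a3 (-1.02). Hspa1a (-1.14) and Hspa1b (-1.12), as members left out of this list, lay nearer to Dnajb1 than Klf6 and Amy2a3 did. Of the genes listed, 4 belong to the immediate early list, and Amy2a3 has near-identical copies with the same counts. The genes nearest to the median of the members were Cela3b, Spock1, Nr1d1, Soga1 and Herpud1, with log2 ratios from -0.42 to -0.41.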

How the data were processed

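Islet RNA was poly(A)-selected with Oligo (dT) beads, made into libraries with the NEBNext Ultra kit and sequenced on an Illumina instrument. The paper names HISAT2 as aligner, and the submitters' processing notes name Bowtie2, RSEM and DESeq2, without saying which step each made. Genome build and annotation are not given in the sources used here. The files that the authors deposited hold an estimated count for each gene, not scaled for depth or length. Of these values 8.56% (control-F2) and 9.28% (AE-F2) were not whole numbers. Depth was 16285888 and 21278513 counts, and 3 counts correspond to 0.184 and 0.141 CPM.

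Counts were rounded, scaled with TMM factors (edgeR 4.0.16, R 4.3.3) computed on all genes, and the 13627 genes averaging 10 counts or more were compared. The log2 ratio was taken after adding 0.5 counts, with a 95% Clopper-Pearson interval (scipy 1.17.1). No p-value was computed, since a group had 1 library. Of 21899 identifiers 21806 matched a GENCODE M21 symbol, including all 10 members. Promoters are RefSeq's on GRCm38.p6. The share of 50-base stretches found in other genes used the longest transcript of each member and both strands. The method was tested on simulated data.

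The members and all lists were chosen with earlier results of these data known. Named genes were all members and, from each list, the 4 most abundant genes and those past 2-fold that averaged 100 counts or more, with the 5 genes nearest in ratio to Dnajb1 and to the members' median. Of the marker lists and some others, only part of the genes this rule covers are printed, and 1 is not reported here. Hsf2, Hsf4, Dnajb4, Cd3e and Ms4a1 fall outside it. Alternatives were 5 other scalings (1 from DESeq2 1.42.0), other minimum counts and pseudocounts, no rounding, a 1.5-fold threshold, Hspa1a and Hspa1b summed, and removal of GC and length trends (statsmodels 0.14.6).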

Additional observations from a re-analysis of the deposited data

How the results depend on the processing

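Under 12 alternatives, 0 log2 ratios of single members changed direction and 3 left the counting interval of the reported value. The minimum counts, the 1.5-fold threshold and the summing of Hspa1a and Hspa1b cannot move the ratio of a single member. The 3 came from taking out the trends with length and GC content, which gave -1.08 for Hspa1a, -1.06 for Hspa1b and -0.38 for Hspa8. The summed ratio of 0.676 was 0.684 when the libraries were scaled by totals without the 10 most abundant genes and 0.682 with upper-quartile scaling. Of the members, 3 were at least 2-fold lower in each alternative that kept that threshold and all 10 genes. With Hspa1a and Hspa1b summed, 2 of 9 were. At the 1.5-fold threshold 4 members were lower, but the share of all genes at that threshold was not computed, so this count has no background. The median of the members ranged from -0.41 to -0.39. Alternatives for the other chaperone lists and the immediate early genes were chosen after seeing the data. The median of the small heat shock list, with few counts, ranged from -0.12 to 0.19, and that of the immediate early genes from -0.86 to -0.70. No paired analysis was possible because 1 library of each group, with different replicate numbers, was analysed, and for the same reason no replicate could be left out. The counting intervals leave out the spread between animals. Among the members, the intervals were widest for Hspb1 and Bag3.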
